A study of Mus musculus with 9 samples.

Results

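The livers of mice kept on a single unchanged diet were followed over time in 3 of the 9 RNA pools of the study, those chosen by the diet label LF-NP, the low fat-normal protein diet with 10% of its energy from fat and 15% from protein. The pools were the reference group killed after the run-in (week 0, mice aged 12 weeks), a group continued on LF-NP for 1 week (age 13 weeks) and a group continued for 12 weeks (age 22 weeks by the labels, although 12 weeks from an age of 12 weeks would make 24, so the age of these mice is uncertain). Every pool held liver RNA of 5 male C57BL/6J mice and was hybridised to 1 Affymetrix Mouse Gene 1.0 ST array, which reads transcripts with probes along the whole gene. All mice, in every group, received LF-NP for the run-in, were habituated to a timed meal in their last week and were killed a fixed time after a calibrated meal. The other 6 pools, used here only for comparison, came from mice given more protein (LF-HP), more fat (HF-NP) or more of both (HF-HP) after the run-in, again for 1 or 12 weeks.

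With 1 array per week there was no replicate, no error and no test, and values are log2 signals after robust multi-array averaging (RMA), so a difference of 1 is a factor of 2 in signal. Weeks on diet, age and the array itself cannot be told apart. Between 2 pools, a gene was counted when its signals differed by 1.5-fold or more, a difference of at least 0.585 on the log2 scale. In a pool, fewer cells of a type and less RNA per cell cannot be told apart, and how many of the 5 mice carried a signal cannot be read. The hepatocyte markers of the labelled tissue were high in all pools, with albumin (Alb) at 13.88, 13.72 and 13.89 in weeks 0, 1 and 12, and none of the 6 hepatocyte markers passed the fold. Between any 2 of the 9 arrays the correlation over all 35556 probe sets was 0.988 to 0.993, and between LF-NP arrays it was 0.9920 to 0.9925.

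The liver after a meal is a useful setting in which to read such a series. In the fasted state PPARA, a nuclear receptor for fatty acids, switches on genes of fatty acid oxidation, and insulin after a meal turns these down and raises genes of lipid synthesis and storage signalling such as Angptl8. The liver is also the main source of acute phase proteins, plasma proteins made in response to inflammatory cytokines, and its resident macrophages, the Kupffer cells, line the sinusoids. Circadian clock genes cycle in hepatocytes and follow feeding time.

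Most genes differed little between the LF-NP pools. Of 19938 genes, 60 (0.301%) were higher and 70 (0.351%) lower by 1.5-fold in week 1 than in week 0. In week 12 against week 0, 169 genes (0.848%) were higher and 128 (0.642%) lower. In week 12 against week 1, 94 (0.471%) were higher and 91 (0.456%) lower. These 3 comparisons share their pools, so their counts are not independent of each other. The median size of the difference over all genes was 0.09, 0.10 and 0.09, and 559 genes had the same value in all 3 pools.

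The largest fall over the series was that of the serum amyloid A genes Saa1 and Saa2, whose products are carried on high density lipoprotein and are the classic acute phase proteins of the mouse. Saa2 stood at 10.81 in week 0, 8.35 in week 1 and 6.60 in week 12, which is 18.4-fold lower in week 12 than in week 0. Saa1 stood at 8.09, 6.16 and 4.68, a difference of -3.41 between week 12 and week 0, and its last value lay below the median level of all genes (5.84). Week 0 was the highest and week 12 the lowest of all 9 pools for both genes, since the pools on the other diets spanned 7.44 to 8.99 for Saa2 and 5.44 to 6.82 for Saa1. Saa3, the third inducible member, which is made mainly by macrophages and fat cells, stood at 6.41, 6.25 and 6.43 and did not pass the fold.

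The promoters of the 3 genes are shown because Saa1 and Saa2 moved together while Saa3 did not. The RefSeq table of mouse promoters (build GRCm38.p6) places the starts of Saa1 and Saa2 8853 bases apart, facing away from each other, with Saa3 27304 bases from Saa1 on the same strand as Saa1. The 250 bases before each start are given, with capitals marking matches to TTNCNNAA, a loose form of the motif bound by C/EBP factors, or to TTNNGNAA, its reading on the other strand.

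Saa1 (chr7:46742981-46743230, minus strand): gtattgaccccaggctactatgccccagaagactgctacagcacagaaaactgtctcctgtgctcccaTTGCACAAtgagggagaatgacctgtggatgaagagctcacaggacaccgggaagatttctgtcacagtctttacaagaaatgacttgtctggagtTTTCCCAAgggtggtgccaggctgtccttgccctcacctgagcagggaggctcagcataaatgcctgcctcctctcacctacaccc
Saa2 (chr7:46751583-46751832, plus strand): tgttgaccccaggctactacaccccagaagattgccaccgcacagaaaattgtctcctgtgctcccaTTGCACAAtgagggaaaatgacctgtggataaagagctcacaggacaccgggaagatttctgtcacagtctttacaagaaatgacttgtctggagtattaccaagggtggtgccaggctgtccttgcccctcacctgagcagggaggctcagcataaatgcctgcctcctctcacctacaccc
Saa3 (chr7:46715677-46715926, minus strand): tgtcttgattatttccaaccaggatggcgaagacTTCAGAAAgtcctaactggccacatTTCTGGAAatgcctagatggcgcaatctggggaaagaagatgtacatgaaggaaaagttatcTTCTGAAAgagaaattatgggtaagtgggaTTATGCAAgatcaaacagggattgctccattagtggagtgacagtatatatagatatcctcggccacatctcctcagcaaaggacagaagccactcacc

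The upstream windows of Saa1 and Saa2 were identical at 238 of 251 aligned positions (94.8%), those of Saa1 and Saa3 at 145 of 276 (52.5%). The same match, read on the gene's strand, lay 182 bases before the start of Saa1 and 183 before that of Saa2. Saa1 had a second one 86 bases before its start. Saa3 had 4 matches, all on the opposite strand, 216, 191, 129 and 99 bases before its start. Of the 32851 promoter windows in the table, 36.8% held the motif on either strand, and a match is a description of the letters and not a binding site. Since Saa1 and Saa2 are close copies also in their transcripts, the array may share signal between them and their split is uncertain.

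The rest of the acute phase list divided. Of its 19 measured genes, Saa1 and Saa2 included, 4 were lower by 1.5-fold in week 1 than in week 0 (0.351% of all genes) and none was higher. In week 12 against week 0, 6 were lower (0.642% of all genes) and none higher, with a list median of -0.06 against 0.00 over all genes. Orm2, an orosomucoid that binds small hydrophobic molecules in plasma, stood at 9.72, 7.80 and 8.46 in weeks 0, 1 and 12. Lcn2, the siderophore-binding lipocalin, stood at 9.41, 8.11 and 7.97. Both were high in week 0 relative to later LF-NP pools but not relative to the other diets, where Orm2 ranged from 7.49 to 10.05 and Lcn2 from 7.57 to 10.10. Apcs, serum amyloid P and the pentraxin of the mouse acute phase, stood at 8.99, 8.48 and 8.26. Orm3 was at 5.52 and 5.54 in weeks 0 and 1 and at 4.52 in week 12. The fibrinogen genes Fga, Fgb and Fgg, haptoglobin (Hp), hemopexin (Hpx) and Serpina3n, made by hepatocytes in large amounts, all differed by 0.21 or less in size between week 12 and week 0. Socs3, the feedback inhibitor of cytokine signalling, stood at 6.38, 6.22 and 6.85, and Cebpd, a C/EBP factor induced in the acute phase, at 5.66, 5.55 and 5.55.

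**Figure D1:**
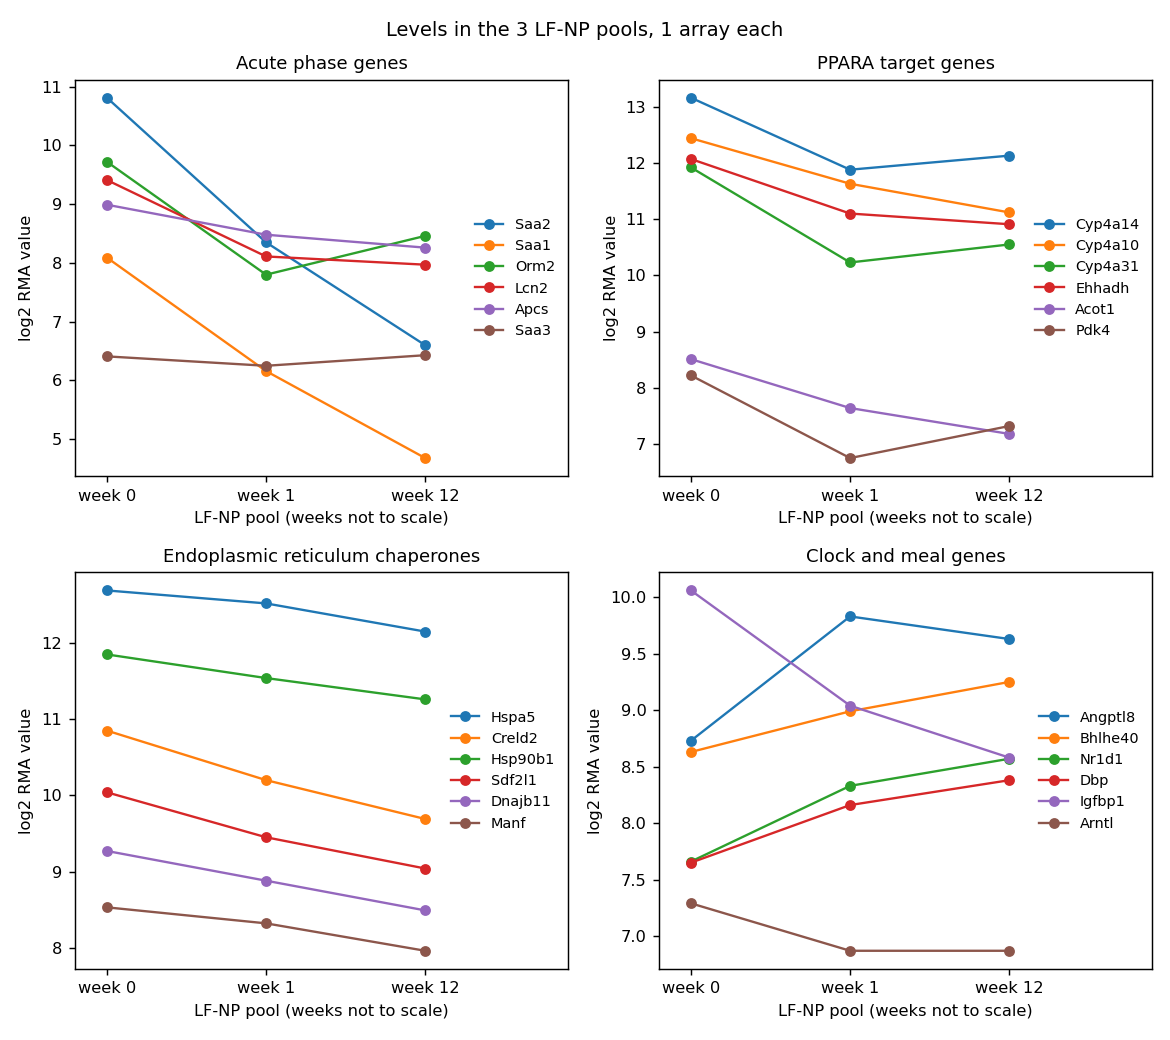
Log2 RMA values (y axis) of 6 genes per panel in the LF-NP pools of weeks 0, 1 and 12 (x axis, weeks not to scale), 1 array per point with no error. Saa2 and Saa1 fall steeply in both steps while Saa3 stays between 6.25 and 6.43, the PPARA targets lie highest at week 0, the endoplasmic reticulum chaperones fall in small steps, and Angptl8, Nr1d1, Dbp and Bhlhe40 lie lowest at week 0.

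Among the lists, that of the PPARA target genes had the largest share of genes lower than in week 0 in both later pools. Of 26 measured genes of fatty acid oxidation and PPARA targets, 8 were lower by 1.5-fold in week 1 than in week 0. In week 12, 9 were lower, and none was higher in either pool, against 0.351% and 0.642% lower among all genes. Like the other lists, this one was chosen with earlier results of these data known, so the shares only describe it. The list median was -0.24 in week 1 and -0.33 in week 12 relative to week 0, and -0.06 in week 12 relative to week 1. Cyp4a14, Cyp4a10 and Cyp4a31 encode fatty acid omega-hydroxylases and are standard PPARA targets in the mouse liver. Cyp4a14 stood at 13.16, 11.88 and 12.13 in weeks 0, 1 and 12. Cyp4a31 stood at 11.92, 10.23 and 10.55, and Cyp4a10 at 12.44, 11.63 and 11.12. The Cyp4a genes are near copies of each other, so the share of signal that belongs to each is uncertain.

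Enzymes further along the pathway were lower as well. Ehhadh, the bifunctional enzyme of peroxisomal beta-oxidation, stood at 12.07, 11.10 and 10.91. The acyl-CoA thioesterases Acot1 (8.51, 7.64 and 7.18) and Acot3 (7.86, 6.84 and 7.08) were lower in both later pools. Pdk4, the kinase that shuts pyruvate out of the citric acid cycle in fasting, stood at 8.22, 6.75 and 7.32, lowest in week 1. The mitochondrial enzymes of the list differed less, with Cpt1a, the entry step, at 11.92, 12.02 and 11.82 and Acadm, the medium-chain dehydrogenase, at 11.75, 11.61 and 11.41. Ppara itself stood at 10.77, 10.62 and 10.66. Gm15441, a long non-coding RNA antisense to Txnip, stood at 6.67, 4.81 and 5.45, while Txnip (looked up because of it) stood at 9.44, 9.37 and 9.38. Cd36, the fatty acid transporter, was at 9.05 in week 0 and at 8.16 and 8.26 in weeks 1 and 12, and Mogat1, a monoacylglycerol acyltransferase, at 4.94, 4.18 and 4.29.

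For Ehhadh, the Cyp4a genes and Cd36 it was the later LF-NP pools and not the reference that lay at the edge of the series. Ehhadh reached 12.38 and Cyp4a14 13.40 in pools on the other diets, whose lowest values, 11.29 and 12.33, lay above the week 12 LF-NP values of 10.91 and 12.13. Cd36 in weeks 12 and 1 (8.26 and 8.16) was below the range of 9.03 to 10.01 in the other diets, and week 0 (9.05) was within it. Pdk4 differed from these, since its week 0 value of 8.22 lay above the 6.74 to 7.93 of the other diets. Over the 37 genes whose week 0 pool stood above both other LF-NP pools by 1.5-fold or more, 13 (35.1%) had a week 0 value above all 6 pools on the other diets. The share was 36.7% among all 2757 genes whose week 0 pool lay furthest from the other LF-NP pools and above them. On the other sides the genes past 1.5-fold lay beyond the 6 pools more often than such a wider set did, at 75.0% against 37.1% for week 0 below, 93.3% against 44.4% for week 1 above, 100.0% against 39.0% for week 1 below, 75.0% against 44.8% for week 12 above and 65.5% against 33.7% for week 12 below. Genes chosen for a large gap lie further out by construction, so nothing is read from these shares.

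Few genes of the lists of fed and fasted metabolism passed the fold. Outside these lists, Angptl8, a secreted inhibitor of lipoprotein lipase activity that is induced by feeding, stood at 8.73, 9.83 and 9.63 in weeks 0, 1 and 12. Its week 0 value was the lowest of all 9 pools, 0.79 below the next. Of 23 measured genes of de novo lipogenesis, 1 was higher by 1.5-fold in week 1 than in week 0 (0.301% of all genes). In week 12, 2 were higher (0.848%) and 1 lower (0.642%) than in week 0. The list medians were 0.03 and 0.07. Srebf1, the transcription factor of fatty acid synthesis, stood at 10.31, 10.90 and 11.06 and Scd2, a fatty acid desaturase, at 6.36, 6.64 and 7.05. The gene that was lower was Lpin1, a phosphatidate phosphatase induced in fasting, at 11.82, 11.40 and 10.88.

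Of 14 gluconeogenesis and fasting genes, Igfbp1 was the one past the fold, lower in week 1 and in week 12 than in week 0. Of all genes, 0.351% and 0.642% were lower. The list medians were -0.17 and -0.18. Igfbp1, an insulin-repressed binding protein of insulin-like growth factors, stood at 10.06, 9.04 and 8.58, 2.79-fold lower in week 12 than in week 0. Pck1, which starts gluconeogenesis, stood at 12.79, 12.24 and 12.32 and Tat, tyrosine aminotransferase, at 13.29, 12.93 and 12.97. Among further genes whose week 0 pool lay furthest below the others, Arrdc3, an arrestin-domain protein, stood at 8.48, 9.50 and 9.42 and Slc22a13, an organic anion transporter, at 5.48, 6.30 and 6.15.

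Few genes of sterol synthesis passed the fold, but most lay below the reference. Of 20 measured genes of cholesterol synthesis, 2 were lower by 1.5-fold in week 1 and 2 in week 12 than in week 0 (0.351% and 0.642% of all genes), with list medians of -0.23 in both. Week 1 values were below week 0 for 18 of the 20 genes, as for 39.9% of all genes. Sqle, squalene epoxidase, stood at 7.96, 7.42 and 6.89. Msmo1, the sterol methyl oxidase, stood at 9.29, 8.64 and 8.48, and Mvd, mevalonate decarboxylase, at 7.04, 6.37 and 6.72. For Sqle, Msmo1 and Mvd all 3 LF-NP pools lay below the whole range of the other diets, which began at 7.99, 9.36 and 7.18. Fdft1, squalene synthase, did not keep this order and stood at 10.10, 9.72 and 10.33.

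**Figure D2:**
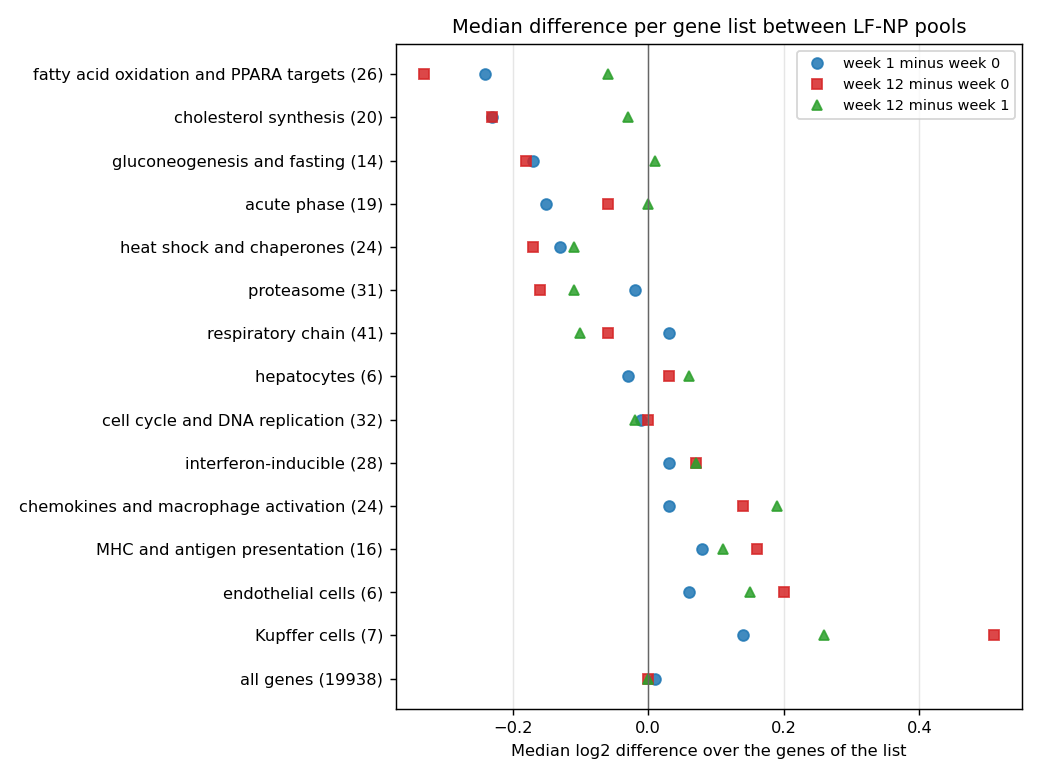
Median log2 difference (x axis) over the measured genes of 14 gene lists and over all genes (y axis, number of genes in brackets) for week 1 minus week 0 (circles), week 12 minus week 0 (squares) and week 12 minus week 1 (triangles) in the LF-NP pools. The fatty acid oxidation list lies furthest left at -0.33 and the Kupffer cell list furthest right at 0.51, both for week 12 minus week 0.

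The chaperone list held genes that were lower and 1 that was higher. Of its 24 measured genes, 2 were lower (0.351% of all genes) and 1 higher (0.301%) by 1.5-fold in week 1 than in week 0, and 4 were lower (0.642%) and 1 higher (0.848%) in week 12. All 4 of the lower ones act in the endoplasmic reticulum, where secreted proteins fold. Divided by compartment after the values were seen, the 12 members of the endoplasmic reticulum all had lower values in week 12 than in week 0, with 4 of them past the fold and a median of -0.56. The 12 members of the cytosol, nucleus or mitochondria had a median of 0.01, with 6 above and 5 below 0. Creld2 stood at 10.85, 10.20 and 9.69 and Sdf2l1 at 10.04, 9.45 and 9.04. Dnajb11, a co-chaperone of BiP, stood at 9.27, 8.88 and 8.49. Hspa5, which encodes BiP itself, stood at 12.69, 12.52 and 12.15, and Hsp90b1 at 11.85, 11.54 and 11.26. The gene that was higher was Hspa1a, the inducible cytosolic Hsp70, at 6.83, 7.46 and 7.93, while its constitutive relative Hspa8 stood at 13.15, 13.16 and 13.16. In the 3 other diets the medians of the endoplasmic reticulum members in week 12 against week 1 were -0.26, -0.14 and -0.14 (LF-HP, HF-NP and HF-HP), beside -0.32 in LF-NP.

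A few clock genes differed between the reference and the later pools. Of 19 measured circadian genes, 1 was higher by 1.5-fold in week 1 and 3 in week 12 than in week 0 (0.301% and 0.848% of all genes), and none was lower. Nr1d1, the repressor REV-ERB alpha, stood at 7.66, 8.33 and 8.57. Dbp, an output factor of the clock, stood at 7.65, 8.16 and 8.38, and Bhlhe40, a repressor also known as DEC1, at 8.63, 8.99 and 9.25. Per2 stood at 8.79, 9.21 and 9.23. Arntl, which encodes the activator BMAL1 and cycles opposite to Nr1d1, stood at 7.29, 6.87 and 6.87. Clock, Per1, Cry2, Tef and Usp2 differed by 0.15 or less in size from week 0 in either later pool.

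The gene that set the week 12 pool furthest apart was Dmbt1. It encodes a secreted scavenger receptor protein of mucosal and ductal epithelia and stood at 3.56 in week 0, 3.73 in week 1 and 8.93 in week 12, and it was between 3.34 and 3.96 in the 6 pools on the other diets. The difference was 5.37 between week 12 and week 0. The 8 low values lay well below the median level of all genes, and the table gives no call against background, so no fold is given. Muc1, a membrane mucin of epithelial surfaces, stood at 5.01, 4.72 and 6.52, against 4.83 to 5.29 in the other diets. In total 13 genes of the week 12 LF-NP pool lay above all 8 other pools by 1.5-fold or more and 4 lay below, while the numbers were 3 and 3 for week 0 and 3 and 0 for week 1. Among the 6 pools on the other diets they ran between 1 and 19 above and between 0 and 10 below, so a set of this size was not peculiar to the pool.

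The remaining genes of this set were named after their values were seen. Krt19, a keratin of bile duct cells, stood at 5.98 in the week 12 LF-NP pool and at 5.13 to 5.33 in the other 8. Cd24a, a surface glycoprotein of immature and ductal epithelium, stood at 6.54 against 5.45 to 5.70, and Slc34a2, a phosphate transporter of lung and intestine, at 6.32 against 4.58 to 5.71. Gabrp, a GABA receptor subunit of epithelia, stood at 5.52 against 3.78 to 4.17, and Adgrg7, an orphan adhesion receptor, at 5.55 against 3.86 to 4.17. Duoxa2, the maturation factor of an epithelial hydrogen peroxide-producing oxidase, stood at 5.24 against 3.93 to 4.20, and B4galnt2, a glycosyltransferase of gut mucins, at 5.79 against 4.51 to 4.78. The others were Chil4 (3.91 against 2.49 to 2.80), Peg10 (7.22 against 5.54 to 6.29), Plet1 (7.35 against 6.24 to 6.56) and Atp2b2 (7.51 against 5.73 to 6.90). Gabrp, Adgrg7, Duoxa2, B4galnt2 and Chil4 lay below the median level of all genes (5.84) even in the week 12 pool. A common source of the genes of this set was not tested.

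The bile duct markers did not move as a list. Of the 5 cholangiocyte markers, Krt19 was the one past the fold (0.848% of all genes were higher), and the list median in week 12 against week 0 was 0.04. Krt7 stood at 5.69, 5.66 and 5.63 in weeks 0, 1 and 12, Epcam at 4.50, 4.49 and 4.61, Sox9 at 7.02, 7.01 and 7.06 and Cftr at 3.36, 3.28 and 3.04. The log2 of the summed signal of the 5 markers was 0.16 higher in week 12 than in week 0. Pancreas markers, which would accompany exocrine tissue in the sample, had none of 4 past the fold, and the log2 of their summed signal differed by -0.02. In all 3 LF-NP pools, 3 of the 5 cholangiocyte and 3 of the 4 pancreas markers lay below the median level of all genes (5.84). The table gives no call against background, so little can be read from their small differences. The part of other cells in the Dmbt1 result was not tested.

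**Figure D3:**
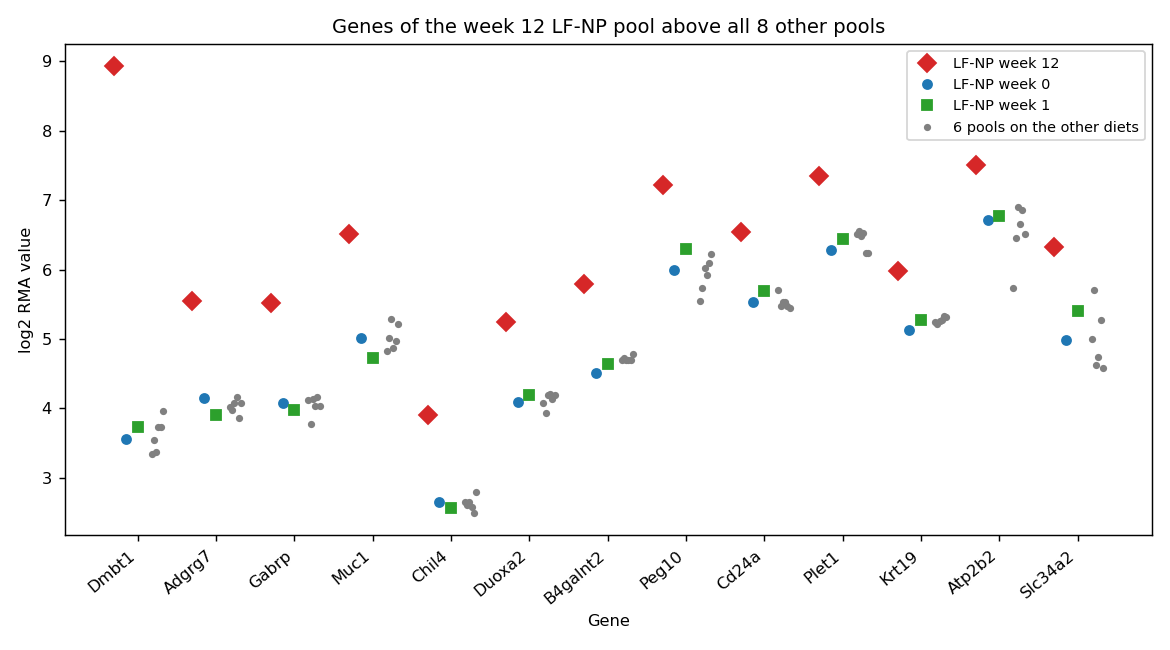
Log2 RMA values (y axis) of the 13 genes (x axis) whose week 12 LF-NP pool (diamonds) lay above all 8 other pools by 1.5-fold or more, beside the LF-NP pools of weeks 0 (circles) and 1 (squares) and the 6 pools on the other diets (small points), 1 array each. The diamond of Dmbt1 lies at 8.93 with the other 8 pools between 3.34 and 3.96.

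Several macrophage genes were higher in week 12 than in week 0 of LF-NP. Of the 7 Kupffer cell markers, 2 were higher by 1.5-fold in week 12 than in week 0 (0.848% of all genes) and none lower, with a median of 0.51, and the log2 of their summed signal was 0.53 higher. Vsig4, a complement receptor of Kupffer cells, stood at 9.05, 9.10 and 9.82. Timd4, a receptor for dying cells, stood at 6.16, 6.66 and 6.89, and the marker Clec4f at 8.97, 9.05 and 9.30. All 7 markers had higher values in week 12 than in week 0, as had 48.6% of all genes, with Marco, the least, at 4.85, 4.99 and 4.99. The list median in week 12 against week 1 was 0.26 in LF-NP and 0.16, 0.32 and 0.05 in LF-HP, HF-NP and HF-HP. Vsig4 and Timd4 in week 12 lay within the ranges of the other diets (8.67 to 9.94 and 5.96 to 6.98). Clec4f lay above their highest value, 9.22. Among 24 measured genes of chemokines and macrophage activation, 4 were higher by 1.5-fold in week 12 than in week 0 (0.848% of all genes) and none lower. Cxcl13, the chemokine that attracts B cells, stood at 5.83, 6.07 and 7.25. Gpnmb, a membrane glycoprotein of lipid-laden macrophages, stood at 4.40, 4.37 and 5.66. Lyz2, lysozyme, stood at 8.57, 8.73 and 9.40, and Cd68, a lysosomal protein of macrophages, at 7.18, 7.49 and 7.97. Tnf (4.18, 4.17 and 4.18) and Ccr2, the receptor of recruited monocytes (3.67, 3.46 and 3.78), did not pass the fold. The median of this list in week 12 against week 1 was 0.19 in LF-NP and -0.01, 0.15 and -0.04 in LF-HP, HF-NP and HF-HP. Lyz2, Cd68 and Gpnmb in week 12 lay within the ranges of the other diets (8.50 to 9.42, 6.98 to 8.01 and 4.01 to 6.02). Cxcl13 lay above their highest value, 7.20.

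Other immune genes divided. Fcer1g, the common gamma chain of Fc receptors, stood at 6.74, 6.70 and 7.83. The class II genes H2-Aa and Cd74 stood at 7.23, 7.22 and 7.84 and at 7.96, 8.15 and 8.59. They were the 2 of 16 antigen presentation genes higher by 1.5-fold in week 12 than in week 0 (0.848% of all genes). Clec4g, a lectin of sinusoidal endothelium, stood at 10.23, 10.30 and 10.89, but a second probe set of the gene differed by -0.03 between week 12 and week 0. Clec4g was the 1 of 6 endothelial markers past the fold (0.848% of all genes were higher). All 6 had higher values in week 12 than in week 0, as had 48.6% of all genes, with a median of 0.20. The least was Stab1 (8.41, 8.41 and 8.45), and Pecam1 stood at 7.03, 7.08 and 7.22. The log2 of the summed signal of the 6 was 0.43 higher, with the brighter Clec4g probe set included. Cd79a, a B cell receptor subunit, stood at 3.32, 3.91 and 4.44, a low signal, and none of the other 3 measured B cell markers passed the fold. Neutrophil markers differed little, with S100a8 at 3.48, 3.52 and 3.52, but all 5 lay below the median level of all genes in every LF-NP pool. None of 28 interferon-inducible genes passed the fold in any comparison. In the collagen and matrix list, Acta2, smooth muscle actin, stood at 6.35, 6.29 and 7.16 and Thbs1, thrombospondin, at 5.06, 5.53 and 5.75. These were the 2 of 26 past the fold, both higher in week 12 than in week 0 (0.848% of all genes).

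Further genes set the week 12 pool apart from the other LF-NP pools, but several lay within the range of the other diets. Cyp2b9, a P450 enzyme expressed more in female liver, stood at 7.79, 7.47 and 8.98 (7.78 to 10.16 in the other diets), and Obp2a, an odorant-binding lipocalin, at 4.85, 5.10 and 6.28, also within the range of the other diets. On the low side, Raet1d, a stress ligand of the NKG2D receptor, stood at 6.91, 6.79 and 5.48, below all other pools. Mt2, a metal-binding metallothionein, stood at 9.88, 10.28 and 8.67 (8.21 to 12.17 in the other diets), and Mt1 at 8.62, 8.64 and 8.07. Rhbg, the ammonium transporter of hepatocytes around the central vein, stood at 8.27, 8.08 and 7.25, whereas Lgr5, a WNT target of the same zone, stood at 7.29, 7.54 and 8.10 and Glul, glutamine synthetase of that zone, at 11.85, 11.85 and 11.99. Of 19 measured genes of that zone, Rhbg was the 1 lower by 1.5-fold in week 12 than in week 0 (0.642% of all genes). Lgr5 and Rnf43 (7.60, 7.92 and 8.20) were the 2 higher (0.848%). Values were higher in week 12 for 15 of the 19, as for 48.6% of all genes, with a median of 0.11. B3galt1, a galactosyltransferase, stood at 8.55, 8.53 and 7.56 (6.83 to 8.25 in the other diets), Rangrf, a nuclear transport factor, at 8.85, 9.32 and 7.97 and Chic1 at 6.22, 6.24 and 5.00. A second probe set of Chic1 differed by -0.42 between week 12 and week 1, against -1.24 for the brighter one. Rangrf had 2 further probe sets, which differed by -0.29 and -1.39 in week 12 against week 1 (brightest -1.36) and by -0.39 and 0.45 in week 1 against week 0 (brightest 0.47), so its probe sets disagree. The counts were 44 genes with week 12 above both other LF-NP pools by 1.5-fold and 29 below.

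Week 1 was the pool that least often stood apart, with 15 genes above both others and 7 below, against 37 and 20 for week 0. Onecut1, the hepatocyte transcription factor HNF6, stood at 9.81, 10.83 and 9.21 in weeks 0, 1 and 12. Gbp11, a guanylate-binding protein, stood at 6.78, 7.56 and 6.59, and week 1 was above all 8 other pools. Serpina4-ps1, a serpin pseudogene, stood at 11.50, 12.36 and 11.41 and Clec2h, a lectin ligand of natural killer cell receptors, at 6.52, 7.24 and 6.50. The small nucleolar RNAs Snora16a (7.95, 8.89 and 7.58) and Snora3 (8.11, 8.61 and 7.85) were highest and Snord57 (10.93, 10.27 and 11.35) was lowest in week 1, though Snora3 lay 0.50 above week 0 and so short of the fold. Pdgfrl stood at 6.05, 4.96 and 5.85, Phospho1, a phosphatase, at 6.26, 5.62 and 6.28 and Cyp2c38 at 8.55, 7.80 and 8.44. Pcgf1 stood at 6.09, 5.51 and 6.26, and the predicted gene Gm10785 at 7.41, 6.72 and 7.25, with gaps of -0.58 and -0.53 that also fell short of the fold.

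Genes in time order were about as many upwards as downwards. Both steps were at least 0.292 in size, so that the 2 together made 1.5-fold, for 23 genes rising and 21 falling. Beside Hspa1a and Slc34a2, the genes with the largest smaller step upwards, among those at or above the median level of 5.84 in at least 1 pool, were Tsc22d1, a transcription regulator (6.75, 7.16 and 7.75), Pilrb1, a paired immunoglobulin-like receptor (5.24, 5.62 and 6.17), Fabp7, a fatty acid-binding protein (6.85, 7.19 and 7.63), and S1pr5, a sphingosine phosphate receptor (6.77, 7.12 and 7.60). Below that level, Cd79a had a smaller step of 0.53, larger than any of these. Downwards, at the same levels, they were Saa2, Saa1, Sqle, Creld2, Cyp4a10 and Cyp2a22, the last at 6.95, 6.28 and 5.81. Gask1a, a Golgi kinase, stood at 6.44, 7.11 and 7.38, with both later values above all pools on the other diets (5.25 to 7.03).

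Several other lists held a few genes past the fold. Of 18 genes of the growth hormone axis, 2 were higher and 2 lower by 1.5-fold in week 12 than in week 1 (0.471% and 0.456% of all genes). Socs2, its feedback inhibitor, stood at 8.96, 9.30 and 8.49 in weeks 0, 1 and 12 and Esr1, the estrogen receptor, at 8.36, 8.62 and 7.91. The higher ones were Bcl6, a repressor, at 8.52, 8.03 and 8.75 and Socs3, given above. Of the genes higher in male liver, Selenbp2, a selenium-binding protein, stood at 11.78, 11.76 and 10.94 and Elovl3, a fatty acid elongase, at 12.22, 11.51 and 11.57. These were the 2 of 20 past the fold in week 12 against week 0, both lower (0.642% of all genes). Of 19 genes higher in female liver, Cyp2b9 was higher (0.848% of all genes) and 3 were lower (0.642%) in week 12 than in week 0. The lower ones were Cyp2b10 at 5.42, 5.10 and 4.50, Cyp3a44 at 6.50, 5.90 and 5.84 and Acot3, given above. Slc39a4, a zinc importer, stood at 8.73, 8.80 and 8.16, and Tfrc, the transferrin receptor, at 7.61, 7.01 and 7.24. Osgin1, an NRF2 target, stood at 9.31, 9.87 and 10.06. It was the 1 of 23 genes of that list past the fold, higher in week 12 than in week 0 (0.848% of all genes). The lipid droplet proteins G0s2 (8.78, 8.89 and 8.23) and Cidec (6.78, 7.16 and 6.52) were lower in week 12 than in week 1. Among immediate early genes, Atf3 stood at 5.97, 5.69 and 5.20, Gadd45a at 6.07, 6.52 and 6.84 and Klf10 at 7.12, 7.79 and 7.40. No marker of erythroid cells, adipocytes, skeletal muscle or stellate cells passed the fold in any comparison. All 4 adipocyte and 3 of the 5 muscle markers lay below the median level of all genes in all 3 LF-NP pools. Only 2 erythroid markers were measured, so little can be read from their absence.

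Many lists had no gene past the fold, which at these shares over all genes is near what a list of their size holds. No gene passed the fold in any comparison among 32 genes of the cell cycle, 41 of the respiratory chain, 31 of the proteasome, 34 of complement and coagulation, 21 of ATF4 and stress and 8 of the urea cycle. Cps1, the first enzyme of the urea cycle, stood at 13.29, 13.24 and 13.23. Of 39 genes of amino acid breakdown, Acmsd, an enzyme of the tryptophan pathway, was the one past the fold, at 8.82, 8.40 and 8.03. It was lower in week 12 than in week 0 (0.642% of all genes). Small differences below the fold were common in some of these lists. Values in week 12 were below week 0 for 30 of 31 proteasome genes (median -0.16), 31 of 39 genes of amino acid breakdown (median -0.12) and 29 of 41 of the respiratory chain (median -0.06), as for 43.4% of all genes. In all, 32 of the 49 lists had at least 1 member past the fold in some comparison.

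The step between week 1 and week 12 could be set beside the same step in the other 3 diets, whose arrays share no LF-NP pool. Between week 12 and week 1, 138 genes were higher and 223 lower in LF-HP, 126 and 186 in HF-NP and 117 and 196 in HF-HP, beside 94 and 91 in LF-NP. Taken over genes, which share the same arrays and are no replicates, the LF-NP difference correlated with that in the other diets at r = 0.19 (LF-HP), 0.22 (HF-NP) and 0.04 (HF-HP). Of the 94 genes higher in LF-NP, 31 (33.0%) were above 0 in all 3 other diets, and this was so for 8.78% of all genes. Of the 91 lower genes, 23 (25.3%) were below 0 in all 3, as were 14.3% of all genes.

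The genes that passed the fold in LF-NP and also in the mean of the other diets numbered 7 on the high side and 8 on the low side. Not all of them shared a direction in every diet. Of the high ones, Cyp2b9 differed by -0.61 in HF-HP and Obp2a by -0.53 in LF-HP, and of the low ones Mt2 by 0.15 in HF-NP. Orm2 was 2.02 higher in HF-NP but 0.30 and 0.27 in LF-HP and HF-HP. The examples that follow were chosen after their values were seen, from those with 1 direction in all diets. Wfdc17, a macrophage protein, was 1.06 higher in LF-NP and 0.86, 0.76 and 0.56 higher in LF-HP, HF-NP and HF-HP. The complement subunit C1qb of macrophages was 0.82 higher in LF-NP and 0.73, 0.91 and 0.26 higher in the other diets. Zfp991, a zinc finger gene with many close copies, was 1.06 higher in LF-NP and 0.96, 1.12 and 1.03 higher in the others. On the low side, B3galt1 differed by -0.97 in LF-NP and by -1.12, -0.58 and -0.72 in the others, and E2f8, an E2F transcription factor of the cell cycle, by -0.82 and by -0.75, -0.73 and -2.11. Scara5, a ferritin receptor, differed by -0.77 in LF-NP and by -0.81, -0.73 and -0.46 in the others. By contrast, Dmbt1 was 5.20 higher in LF-NP and 0.39, 0.18 and 0.58 higher in the others, and Muc1 1.80 higher in LF-NP with 0.04, -0.04 and -0.07 in the others. Saa2 differed by -1.74 in LF-NP and by -0.58, 1.28 and -1.15 in LF-HP, HF-NP and HF-HP, so the diets did not share a direction.

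**Figure D4:**
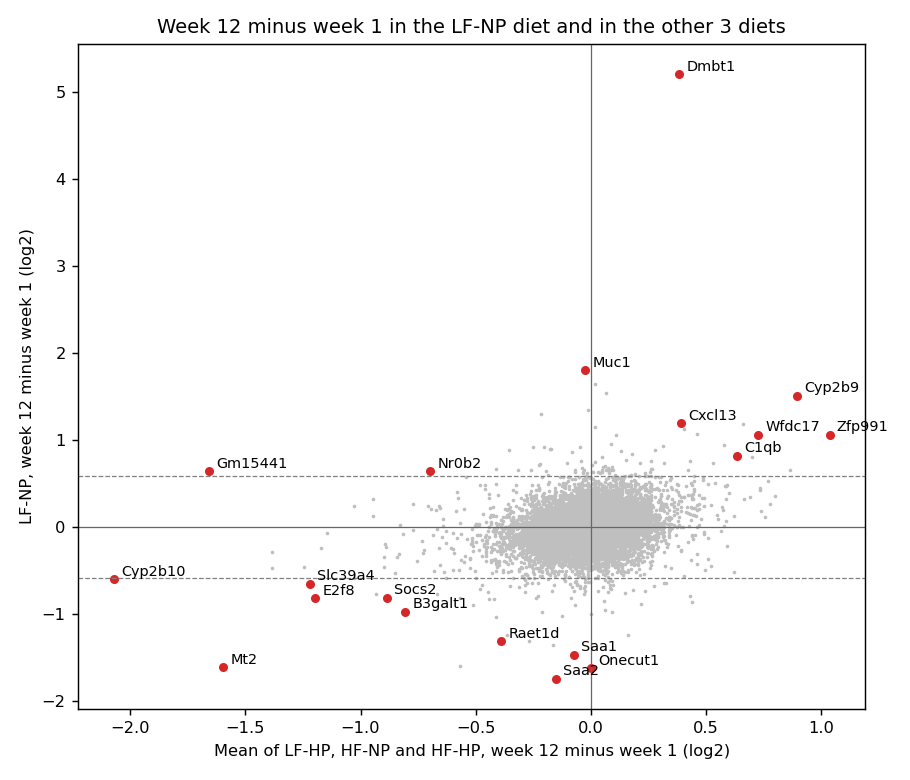
Log2 difference week 12 minus week 1 in LF-NP (y axis) against the mean of the same difference in LF-HP, HF-NP and HF-HP (x axis), 1 point per gene, 19938 genes, with dashed lines at the 1.5-fold limit in LF-NP. Dmbt1 lies at 5.20 on the y axis, Wfdc17, Zfp991 and C1qb lie to the upper right, Mt2, E2f8 and B3galt1 to the lower left, and Gm15441 and Nr0b2 to the upper left.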

How the data were processed

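Total RNA was extracted from mouse liver, pooled from 5 mice per group and, with its integrity tested, hybridised to Affymetrix Mouse Gene 1.0 ST arrays. The authors deposited 1 table of log2 values of the 9 arrays, normalised by RMA per the labels and methods, and raw scans were not used here. The table lists the probe sets of the array, not the gene-wise probe sets named in the methods. RMA fits each probe set over the arrays normalised together, so values of such pools are not independent of each other. Equal values in different pools occur.

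Of 35556 probe sets, 21789 had 1 gene symbol in the platform annotation, 1621 had several and 12146 had none. Symbols were updated by Entrez ID for 21698 of them. A gene took its probe set with the highest mean over the 9 pools, which gave 19938 genes. Differences were subtracted log2 values, with no test, and 1.5-fold counted. A pool stood apart by its gap to the middle LF-NP pool.

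Genes were named by rule. For gaps and steps, only genes with a value at or above the median level of 5.84 in at least 1 LF-NP pool were taken. These were the 6 with the largest gap above and below for each week and the 6 with the largest steps in either direction. Within lists, at most 4 genes past the fold with the widest span were named, or the first 2 members where none passed. The choice within lists had no level filter, and some of its genes, such as Mogat1 and Gpnmb, lay below 5.84 in all 3 pools. Members of lists outside this rule are named as context. There were 49 lists with 1022 entries, of which 111 were not analysed here. Members, lists and rules were chosen with earlier results of these data known. The counting steps were tested on simulated data. Scaling, probe set choice, a level filter and a 2-fold limit were varied. Promoters came from a RefSeq table. The software was Python 3.11.15, pandas 2.3.3, NumPy 2.4.6, Biopython 1.88, matplotlib 3.10.9, R 4.3.3 and limma 3.58.1 (cyclic loess). The number of arrays limits the precision.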

Additional observations from a re-analysis of the deposited data

Results flagged for a closer look

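Among the named genes, 2 moved past 1.5-fold between week 12 and week 1 in LF-NP and the opposite way in all 3 other diets, by more than the median size of the difference over all genes in each diet. The difference between diets was not tested, since each diet and week had 1 array. Over all genes past the fold in LF-NP, 8 of the 94 higher ones and 4 of the 91 lower ones had the opposite sign in all 3 other diets, whereas 14.3% of all genes were below 0 and 8.78% above 0 in all 3. Gm15441, a long non-coding RNA antisense to Txnip, was 0.64 higher on the log2 scale in week 12 than in week 1 of LF-NP and differed by -0.48, -2.47 and -2.02 in LF-HP, HF-NP and HF-HP. Nr0b2, the nuclear receptor SHP that represses bile acid synthesis, was 0.64 higher in LF-NP and differed by -1.06, -0.32 and -0.71 in the other diets. The Nr0b2 values in LF-NP were 8.30, 8.09 and 8.73 in weeks 0, 1 and 12.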

How the results depend on the processing

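With each array centred on its median, with cyclic loess between the 3 LF-NP arrays, and with the mean of a gene's probe sets, all 14 counts of genes stayed within 1.5 times their value, and no list median or named gene changed direction among those past the fold. Centring moved the 3 comparisons by -0.022, -0.030 and -0.008. With it, 141 genes were higher and 160 lower in week 12 than in week 0, against 169 and 128 without it. In week 12 against week 1, 86 were higher and 96 lower, against 94 and 91. Which side held more genes in these comparisons thus depended on the scaling. The mean of the probe sets moved 5 of 134 named genes by more than the median difference, with Clec4g at 0.31 in week 12 against week 0 and Chic1, Rangrf and Socs2 at -0.83, -1.02 and -0.70 in week 12 against week 1.

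Counts fell where fewer genes could be counted. With only the 10233 genes at or above the median level, 26 genes were higher and 43 lower in week 1 than in week 0, 83 were lower in week 12 than in week 0, and 49 were higher and 52 lower in week 12 than in week 1. Then 10 genes had week 0 below both other pools, 5 had week 1 above and 4 below, and 14 rose in both steps. At 2-fold, 3 genes were higher and 14 lower in week 1 than in week 0, 22 and 21 in week 12 than in week 0, and 15 and 12 in week 12 than in week 1. At 2-fold, week 0 stood above in 9 genes and below in 0, week 1 above in 1 and below in 0, and week 12 above in 14 and below in 4, while 1 gene rose and 5 fell in both steps. With 1 array per pool, no pool could be left out of a group, and no paired analysis was possible because each group had 1 array and no test was run.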

Other observations

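Probe sets without a gene symbol, which enter no result above, differed more often. Of 12146 such probe sets, 13.8% were past 1.5-fold in week 12 against week 0 and 14.3% in week 1 against week 0, where probe sets with 1 gene symbol gave 1.46% and 0.68%. Their median level was 4.85, against 5.87 for probe sets with 1 gene symbol. The 1621 probe sets with several gene symbols gave 1.05% and 2.22%.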
